A study of Mus musculus with 16 samples.

Results

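The genotype by LPS interaction in mouse liver is the LPS effect in p65 S534A livers minus the LPS effect in wild-type (WT) livers, computed for each named gene. All 16 arrays of the series entered it by their titles, 4 in each of 4 groups, and 15908 genes were tested. The groups were untreated WT, WT given 1 mg/kg LPS, untreated S534A and S534A given 1 mg/kg LPS, all whole livers of male mice. S534A mice are homozygous for a knock-in allele of Rela, made by homologous recombination in embryonic stem cells, in which a serine codon of p65 (TCC) is replaced by an alanine codon (GCA). The line came from a pair of targeted stem cell clones, its Neo cassette was removed with FLPe, and it was backcrossed to C57Bl6/J, the strain of the WT mice. No cell type limits the allele, so every cell of the liver carries it. The labels give neither the age of the mice nor how long after LPS the livers were taken, and they name no vehicle group. The series' design text names the LPS dose beside the untreated S534A group as well, while the titles and source names call these samples untreated and were followed. Whether replicates are different mice is not stated, so a p-value here speaks only of the spread among these arrays, part of which may be technical.

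Lipopolysaccharide (LPS) is an endotoxin of bacterial cell walls that is sensed by TLR4. Its signal activates the IKK kinases, which release NF-kB dimers from IkB inhibitors. The p65 protein, encoded by Rela, is the main activating NF-kB subunit, and its transactivation domain holds the serine that is replaced here, a target of IKK and other kinases. In the liver LPS is known to induce chemokines, interferon-stimulated genes and the acute-phase proteins made by hepatocytes, and to lower many genes of drug, bile acid and lipid metabolism. An interaction above 0 means that a gene's change with LPS was more positive in S534A than in WT, which can be a larger rise, a smaller fall or a different starting level. Values are on the log2 scale, so that 1 is a doubling, with standard errors estimated by limma (n = 4 per group).

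No gene passed the interaction test, and for most genes the LPS responses of the genotypes differed by less than 1.5-fold. Of 15908 genes 0 were called at a limma adjusted p under 0.05 (0%), and the lowest adjusted p was 0.875. At an unadjusted p under 0.05 there were 766 genes (4.82%), 319 with a positive and 447 with a negative interaction. The median interaction was 0.005, with quartiles of −0.106 and 0.099. The median 95% interval reached 0.297 either way, and for 13051 genes (82%) the whole interval lay within a 1.5-fold difference between the responses. Larger differences were therefore bounded for most genes, while the rest were measured too loosely to bound them at that size. The bounded share was smaller among genes that LPS moved at least 2-fold, as given below. Only 14 genes had an interaction of at least 1 in either direction, ranging from −2.33 to 2.39, and 8 of these were called in at least 1 of the LPS effects. A count of 0 was also found for S534A against WT after LPS (0%), with 477 genes at an unadjusted p under 0.05.

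By contrast, LPS itself moved much of the transcriptome. In WT livers 7139 genes were called (44.9%) and in S534A livers 7225 (45.4%). The lists shared 5982 genes, which is 83.8% of the WT list and 82.8% of the S534A list. Of the shared genes 5980 changed in the same direction. Both exceptions were small changes. Gstp1, a glutathione transferase, fell by 0.28 in WT and rose by 0.20 in S534A, and the small nucleolar RNA Snord35b fell by 0.47 in WT and rose by 0.53 in S534A. Across genes the WT and S534A effects, which share no array, correlated with Pearson's r of 0.964 and Spearman's rho of 0.90, given as a description because genes are not independent replicates. The standard deviation of the effects over genes was 1.02 times as large in S534A as in WT. Of 1297 genes called and changed at least 2-fold in WT, 1296 moved in the same direction in S534A and 1284 were called there as well. A call in 1 genotype alone did not by itself mark a difference. Of the 1157 genes called only in WT, 881 had intervals that held the responses within 1.5-fold of each other. Of the 1243 called only in S534A, 854 did. Both are smaller shares than the 82% of all genes, and the remaining genes were not bounded at that size.

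**Figure D1:**
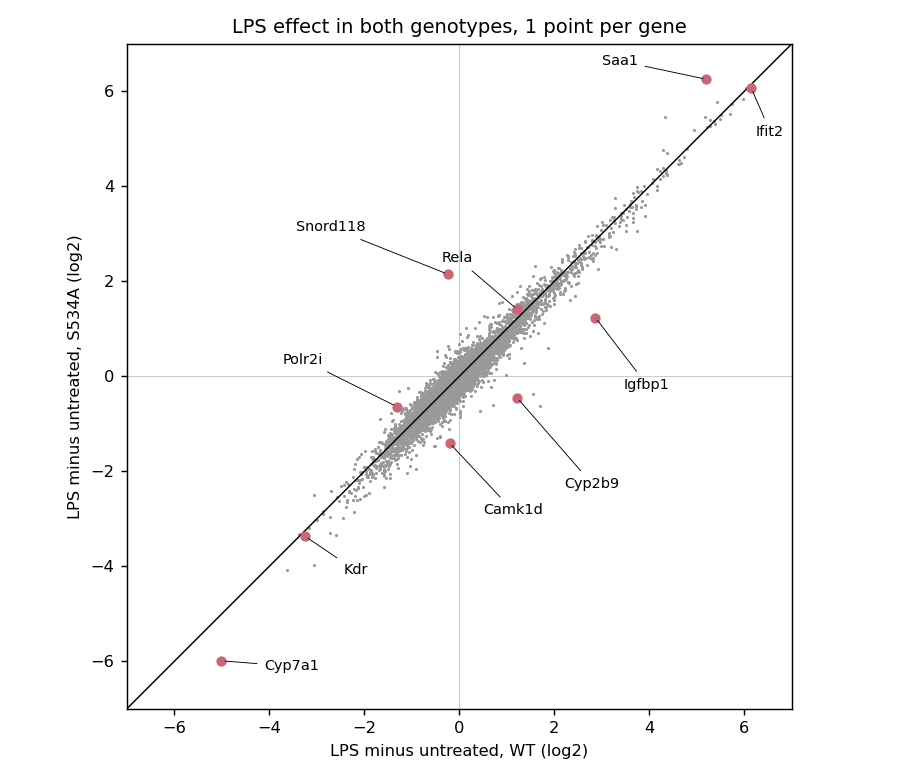
LPS effect in WT (horizontal, log2) against the LPS effect in S534A (vertical, log2), 1 grey point for each of 15908 genes, with the line of equal effects. Red points name genes described in the text: Ifit2, Kdr and Rela lie near the line, Igfbp1, Cyp2b9 and Camk1d below it, and Snord118 and Polr2i above it.

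Genes with a strong response on average did not respond uniformly more or less in S534A. Sorting by the mean of both LPS effects, which with equal groups does not favour a sign of the interaction, gave 694 genes that rose at least 2-fold (4.36% of those tested) and 601 that fell at least 2-fold (3.78%). The median rise was 1.66 in WT and 1.64 in S534A, and the median interaction of these genes was −0.049, with 39.6% above 0 against 51.4% of all genes. For the genes that fell, the median effect was −1.26 in WT and −1.34 in S534A, the median interaction −0.082, and 34.4% lay above 0. The interval lay within 1.5-fold for 59.8% of the genes that rose and 51.2% of those that fell, against 82% of all genes. At the extremes, the antiviral gene Ifit2 rose by 6.15 ± 0.12 in WT and 6.07 ± 0.12 in S534A. Kdr, the VEGF receptor of endothelium, fell by 3.24 ± 0.12 and 3.37 ± 0.12.

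Some features of the arrays bear on single genes. Principal component 1 (78.5% of the variance) separated untreated arrays (−44 to −39.6) from LPS-treated arrays, which lay between 40.2 and 44.2 except LPS-treated WT array 2 at 34.5. A clock score was Arntl subtracted from the average of Tef, Dbp and the Per genes. It was −1.70 and −1.77 for untreated WT arrays 1 and 3, and −2.55 for untreated S534A array 3. Untreated S534A array 4 stood at 0.96 and the other untreated arrays at 3.33 to 3.47. The 3 untreated arrays below 0 are called those of shifted clock. Leaving them out keeps untreated S534A array 4 and leaves fewer untreated WT than untreated S534A arrays. Where leaving them out, or LPS-treated WT array 2, moved a gene's printed interaction by over 1.5 times, the value without them is given beside it. Hepatocyte markers had a mean level between 13.19 and 13.30 in all 16 arrays, as the tissue label implies. Where arrays of the genotypes are said below not to overlap, most such genes were picked for a low interaction p. The share of all genes without overlap was not counted. Between treated genotypes 0 genes were called, and 477 (3%) had an unadjusted limma p under 0.05.

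The promoters of Igfbp1 and Saa1 are shown because these genes stand for the patterns that follow: a gene that differed between genotypes before LPS, and an acute-phase gene that LPS induced strongly in both. Each is 150 bases immediately upstream of the start site, from RefSeq on GRCm38.p6. The Igfbp1 promoter, chr11:7197637-7197786 on the plus strand, has in capitals a match to the FOXO element CAAAACA, 108 bases upstream of the start. The Saa1 promoter, chr7:46742981-46743130 on the minus strand, has in capitals a match to the loose NF-kB consensus GGGNNNNNCC, 78 bases upstream.
Igfbp1: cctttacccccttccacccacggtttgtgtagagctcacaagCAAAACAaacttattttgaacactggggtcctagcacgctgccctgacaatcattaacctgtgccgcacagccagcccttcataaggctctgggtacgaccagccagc
Saa1: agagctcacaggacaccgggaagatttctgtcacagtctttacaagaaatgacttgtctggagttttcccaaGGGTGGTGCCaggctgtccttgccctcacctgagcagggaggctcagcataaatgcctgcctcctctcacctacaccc
Both motifs were searched on both strands of the 250 bases upstream. The FOXO element occurred in 5.56% of 32851 mouse promoters and the NF-kB consensus in 45.8%, and the Igfbp1 promoter also holds an NF-kB match, 17 bases upstream. A match describes the letters and is no evidence of binding.

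Igfbp1, which encodes a secreted protein that binds insulin-like growth factors and is induced by fasting and stress, was among the genes of lowest interaction p. Array by array, untreated WT livers read 9.53, 10.52, 9.60 and 9.06 (log2) and untreated S534A livers 11.31, 11.60, 12.02 and 11.78, so untreated S534A arrays all lay above untreated WT arrays. After LPS it was 12.75, 11.90, 12.90 and 12.63 in WT and 13.31, 12.90, 12.72 and 12.73 in S534A, and the genotypes overlapped. LPS raised Igfbp1 by 2.87 ± 0.26 in WT (7.29-fold, limma adjusted p = 1.56e-07) and by 1.24 ± 0.26 in S534A (2.36-fold, adjusted p = 0.000946). The interaction of −1.63 ± 0.37 did not pass (unadjusted p = 0.000477, adjusted p = 0.875). S534A exceeded WT by 2.00 ± 0.26 in untreated livers (adjusted p = 0.0168) and by 0.37 ± 0.26 in treated ones. With array quality weights the interaction passed (−1.88, adjusted p = 0.00772), and over all alternatives it ran from −1.91 to −1.40 with adjusted p from 0.00772 to 1. Those weights put 13.7% of all genes at an unadjusted limma p under 0.05, against 4.82% in the fit reported.

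Untreated livers gave 2 calls between genotypes (0.0126%), Igfbp1 and Mrps18a, a protein of the mitochondrial ribosome. Mrps18a was at 9.96, 9.99, 9.76 and 10.05 in untreated WT and 9.42, 9.34, 9.51 and 9.35 in untreated S534A, without overlap (−0.53, adjusted p = 0.0344). After LPS it was 9.48 to 9.75 in WT and 9.38 to 9.60 in S534A, and its interaction was 0.40 ± 0.11. Both calls were lost without the 3 arrays of shifted clock, a fit with fewer untreated arrays in each genotype. There Igfbp1 was at 1.77 (limma adjusted p = 0.385) and Mrps18a at −0.65 (0.0611). With the clock score in the model both calls were kept, Igfbp1 at 2.01 (limma adjusted p = 0.0139) and Mrps18a at −0.53 (0.0377). By ordinary least squares, which also lost both calls, the adjusted p values were 0.055 and 0.051. Without untreated WT array 1 they were 0.106 and 0.183, and without untreated S534A array 2 they were 0.0749 and 0.241. Leaving out untreated S534A array 3 gave 0.0521 for both, and leaving out array 4 gave 0.113 and 0.175. Mrps18a alone also lost its call when a further untreated array was left out (WT array 2, 0.0614; WT array 4, 0.0525; S534A array 1, 0.0975) or a treated one (WT array 4, 0.0733; S534A array 1, 0.0667; S534A array 2, 0.0721).

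Polr2i, a small subunit of RNA polymerase II, had the lowest interaction p of all named genes. Its level was 7.93, 7.93, 7.95 and 7.98 in untreated WT and 7.57, 7.32, 7.52 and 7.35 in untreated S534A. After LPS it was 6.41, 6.97, 6.65 and 6.50 in WT and 6.76, 6.77, 6.80 and 6.87 in S534A. The genotypes were apart before LPS, though not called (limma adjusted p = 0.117), and overlapped after it. LPS-treated WT array 2 was the highest of all treated arrays. LPS lowered Polr2i by 1.32 ± 0.10 in WT and by 0.64 ± 0.10 in S534A, an interaction of 0.68 ± 0.14 (adjusted p = 0.875). Without LPS-treated WT array 2 the interaction was 0.79 and passed (adjusted p = 0.0198), and it also passed with array quality weights (0.84, adjusted p = 0.00646).

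Several other genes with a positive interaction started from a lower level in S534A, though none passed the interaction test or was called between untreated genotypes. They were picked for a low interaction p, and the interaction subtracts the untreated difference. A lower untreated level in S534A is thus favoured by the picking itself and is no separate result. Zfp467, a zinc finger protein, fell by 1.43 in WT and 0.94 in S534A (interaction 0.49 ± 0.11). Its untreated levels were 7.90 to 8.22 in WT and 7.48 to 7.76 in S534A, while treated levels overlapped. Abhd17a, a depalmitoylase, fell by 0.63 and 0.20 (interaction 0.43 ± 0.10). For Gstp1 the levels were 14.04, 13.97, 13.87 and 14.01 in untreated WT, 13.59, 13.69, 13.77 and 13.70 in treated WT, 13.55, 13.65, 13.54 and 13.74 in untreated S534A, and 13.70, 13.89, 13.92 and 13.75 in treated S534A. Untreated WT arrays were the highest, overlapping only with 2 treated S534A arrays, and the interaction was 0.48 ± 0.10. Adamts13, the protease of von Willebrand factor, differed in that treated S534A arrays (6.87 to 7.02) lay above treated WT arrays (6.68 to 6.85), with an interaction of 0.42 ± 0.10. Dpm3, a subunit of dolichol-phosphate mannose synthase, Cox6a1, a subunit of cytochrome c oxidase, and Ndufa2, a subunit of respiratory complex I, had interactions of 0.35 ± 0.09, 0.33 ± 0.09 and 0.38 ± 0.11.

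**Figure D2:**
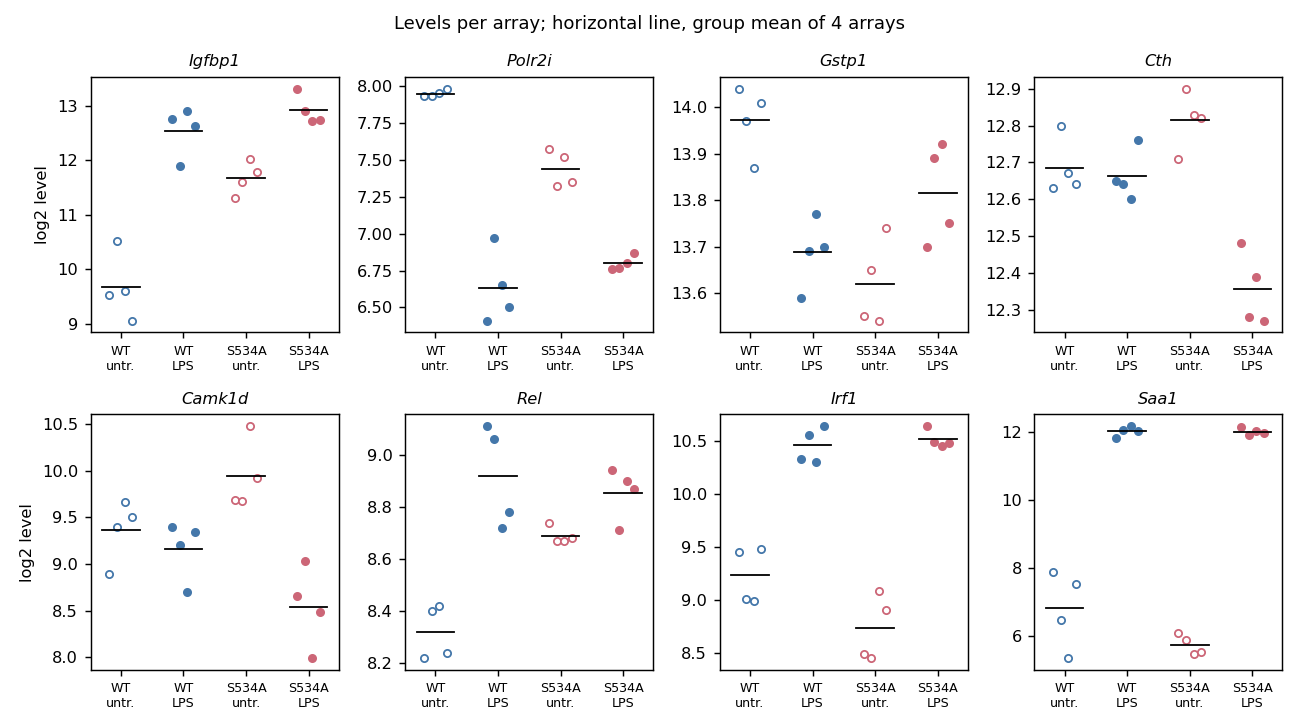
Log2 level of 8 genes in each array (points; open, untreated; filled, LPS; blue, WT; red, S534A) with the group mean of 4 arrays (line). Arrays of the genotypes do not overlap before LPS for Igfbp1, Polr2i, Gstp1, Camk1d and Rel, and overlap after it. Of these genes only Igfbp1 was called between untreated genotypes. Cth is lower in all treated S534A arrays than in treated WT arrays.

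Among genes with a negative interaction, Cth was unlike Igfbp1 because its arrays separated by genotype after LPS, though it was not called there. Cth encodes the transsulfuration enzyme that makes cysteine from cystathionine. Its level was 12.63, 12.80, 12.67 and 12.64 in untreated WT, 12.65, 12.64, 12.60 and 12.76 in treated WT, and 12.71, 12.90, 12.83 and 12.82 in untreated S534A. In treated S534A livers it was 12.48, 12.28, 12.39 and 12.27, below every other array. LPS lowered it by 0.46 ± 0.07 in S534A (adjusted p = 3.3e-05), against −0.03 ± 0.07 in WT, and the interaction was −0.43 ± 0.10 (adjusted p = 0.875). Copg2, a subunit of the COPI vesicle coat, fell by 0.37 in WT and 0.83 in S534A (interaction −0.46 ± 0.11), and Akap1, a mitochondrial anchor of protein kinase A, had effects of 0.04 and −0.33 (interaction −0.38 ± 0.09). Treated S534A arrays lay below treated WT arrays for Akap1 (9.82 to 9.89 against 9.93 to 10.09), and nearly touched them for Copg2 (8.98 to 9.07 against 9.07 to 9.32).

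Larger but looser differences were seen for Camk1d, a calcium/calmodulin-dependent kinase. It was at 8.89, 9.40, 9.67 and 9.50 in untreated WT, 9.40, 9.20, 8.70 and 9.34 in treated WT, 9.69, 9.68, 10.48 and 9.92 in untreated S534A, and 8.66, 9.03, 7.99 and 8.48 in treated S534A. Untreated S534A arrays lay above untreated WT arrays, the treated genotypes overlapped, and LPS lowered Camk1d by 1.41 ± 0.23 in S534A against −0.20 ± 0.23 in WT. Its interaction was −1.20 ± 0.32 (adjusted p = 0.925). Slc17a4, an anion transporter, fell by 0.47 in WT and by 1.30 in S534A (interaction −0.82 ± 0.23), and treated S534A arrays (8.17 to 8.95) lay below treated WT arrays (8.99 to 9.66). The RNA-binding proteins Hnrnph1 and Rbm3 rose in WT (0.45 and 0.52) and were at 0.01 in S534A, with interactions of −0.45 ± 0.12 and −0.51 ± 0.14. For both, untreated S534A livers were already near the treated levels. For Rbm3, 2 further probe sets gave −0.49 and −0.48.

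The NF-kB system showed no shared shift. Of its 25 measured subunits, IkB proteins, IKK components and feedback inhibitors, 0 were called in the interaction, 12 lay above 0, and the median was 0.00 against 0.005 for all genes. LPS raised 21 of them in WT and 22 in S534A. Rela had an interaction of 0.19 ± 0.11 (95% interval −0.04 to 0.43), and 0.29 without the 3 arrays of shifted clock or 0.03 with array quality weights, with a level equal between genotypes after LPS (0.00) and 0.19 lower in untreated S534A. Rel, which encodes the c-Rel subunit of lymphoid and myeloid cells, was at 8.22, 8.40, 8.42 and 8.24 in untreated WT and 8.74, 8.67, 8.67 and 8.68 in untreated S534A, again without overlap. After LPS it was 9.11, 9.06, 8.72 and 8.78 in WT and 8.94, 8.71, 8.90 and 8.87 in S534A, and these overlapped. It rose in WT by 0.60 ± 0.09 (adjusted p = 3.03e-05) and by 0.16 in S534A, where it did not pass (adjusted p = 0.150). The interaction was −0.44 ± 0.13 (adjusted p = 0.925), and the untreated genotypes were not called apart (limma adjusted p = 0.175). Commd1, which promotes p65 turnover, had an interaction of 0.25 ± 0.11.

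NF-kB target genes were likewise centred on 0. Of 37 measured, 31 rose in WT and 34 in S534A, 18 had an interaction above 0, and their median was −0.01. Their median LPS effect was 1.60 in WT and 1.75 in S534A. The member of lowest p was Irf1, a transcription factor of the interferon response. It was at 9.45, 9.01, 8.99 and 9.48 in untreated WT, 8.49, 8.45, 9.08 and 8.90 in untreated S534A, 10.33, 10.56, 10.30 and 10.64 in treated WT, and 10.64, 10.49, 10.45 and 10.48 in treated S534A. Both treated groups reached the same level, and the untreated groups overlapped. Irf1 rose by 1.23 ± 0.15 and 1.79 ± 0.15, an interaction of 0.56 ± 0.21 (adjusted p = 0.951). A second, dimmer probe set of Irf1 (mean level 6.97) gave −0.07 ± 0.17, and the mean of both gave 0.25. Il6, the cytokine that drives acute-phase synthesis, rose by 1.68 in WT and 1.20 in S534A (interaction −0.48 ± 0.28), and without LPS-treated WT array 2 the interaction was −0.22.

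Cytokine, Toll-like receptor and interferon genes gave the same picture. The 29 chemokines had a median interaction of 0.00, and the interval lay within 1.5-fold for 26 of them. Ccl6, a chemokine of macrophages, fell by 0.67 in WT and 0.97 in S534A (interaction −0.31 ± 0.18), with treated S534A arrays (7.10 to 7.24) below treated WT arrays (7.25 to 7.67). Of 42 interleukins, TNF ligands, colony-stimulating factors and receptors, 18 lay above 0 (median −0.06). Tgfb1, an anti-inflammatory cytokine, fell in WT (−0.45) and stood at −0.09 in S534A (interaction 0.37 ± 0.15), and Tnfrsf1a, the TNF receptor, rose by 0.95 and 1.25 (interaction 0.30 ± 0.13). Among 28 genes of Toll-like receptor signalling the median was −0.06. The kinase Map3k7 (TAK1) had an interaction of −0.21 ± 0.09, and the inhibitor Irak3 rose by 3.83 in WT and 3.57 in S534A (−0.26 ± 0.14, and −0.12 without the 3 arrays of shifted clock).

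All 37 interferon-stimulated genes rose in both genotypes, by a median of 3.72 in WT and 3.64 in S534A. Their median interaction was −0.01, 18 lay above 0, and 30 had intervals within 1.5-fold. Ifi35, which regulates interferon signalling, had the lowest p of them (0.30 ± 0.10), and rose by 1.79 in WT and 2.09 in S534A to overlapping levels. The kinase Jak1, which acts below the interferon receptors, rose by 0.52 and 0.30 (interaction −0.22 ± 0.09). Of 16 genes of MHC class I processing, 13 rose in each genotype and the intervals of all 16 lay within 1.5-fold. Tapbpl, a peptide editor of class I molecules, had the lowest p of these (0.24 ± 0.10).

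Acute-phase genes rose alike, with 31 of 35 called in each genotype, a median effect of 1.28 in WT and 1.23 in S534A, and a median interaction of 0.02. The serum amyloid gene Saa1 had a large but uncertain interaction. Its level was 7.89, 6.47, 5.35 and 7.52 in untreated WT and 6.10, 5.89, 5.46 and 5.52 in untreated S534A. After LPS it was 11.82, 12.05, 12.16 and 12.01 in WT and 12.12, 11.90, 12.03 and 11.95 in S534A. Treated levels were nearly equal, and the spread lay in untreated WT, whose arrays 1 and 4 were high. LPS raised Saa1 by 5.20 ± 0.37 in WT (36.9-fold) and 6.26 ± 0.37 in S534A (76.5-fold), an interaction of 1.05 ± 0.52 with a 95% interval of −0.04 to 2.15, and it was 0.69 without untreated WT array 1. Saa2, a near-identical copy whose probes may share signal with Saa1, gave 1.11 ± 0.54, or 0.72 without the same array. Lrg1, a secreted glycoprotein, rose by 1.03 and 1.23 (0.20 ± 0.12, and 0.09 without the 3 arrays of shifted clock). Among 25 complement genes the median was 0.00, and Cd55, which protects cells from complement, had −0.49 ± 0.15 (0.30 in WT, called, and −0.19 in S534A, not called).

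**Figure D3:**
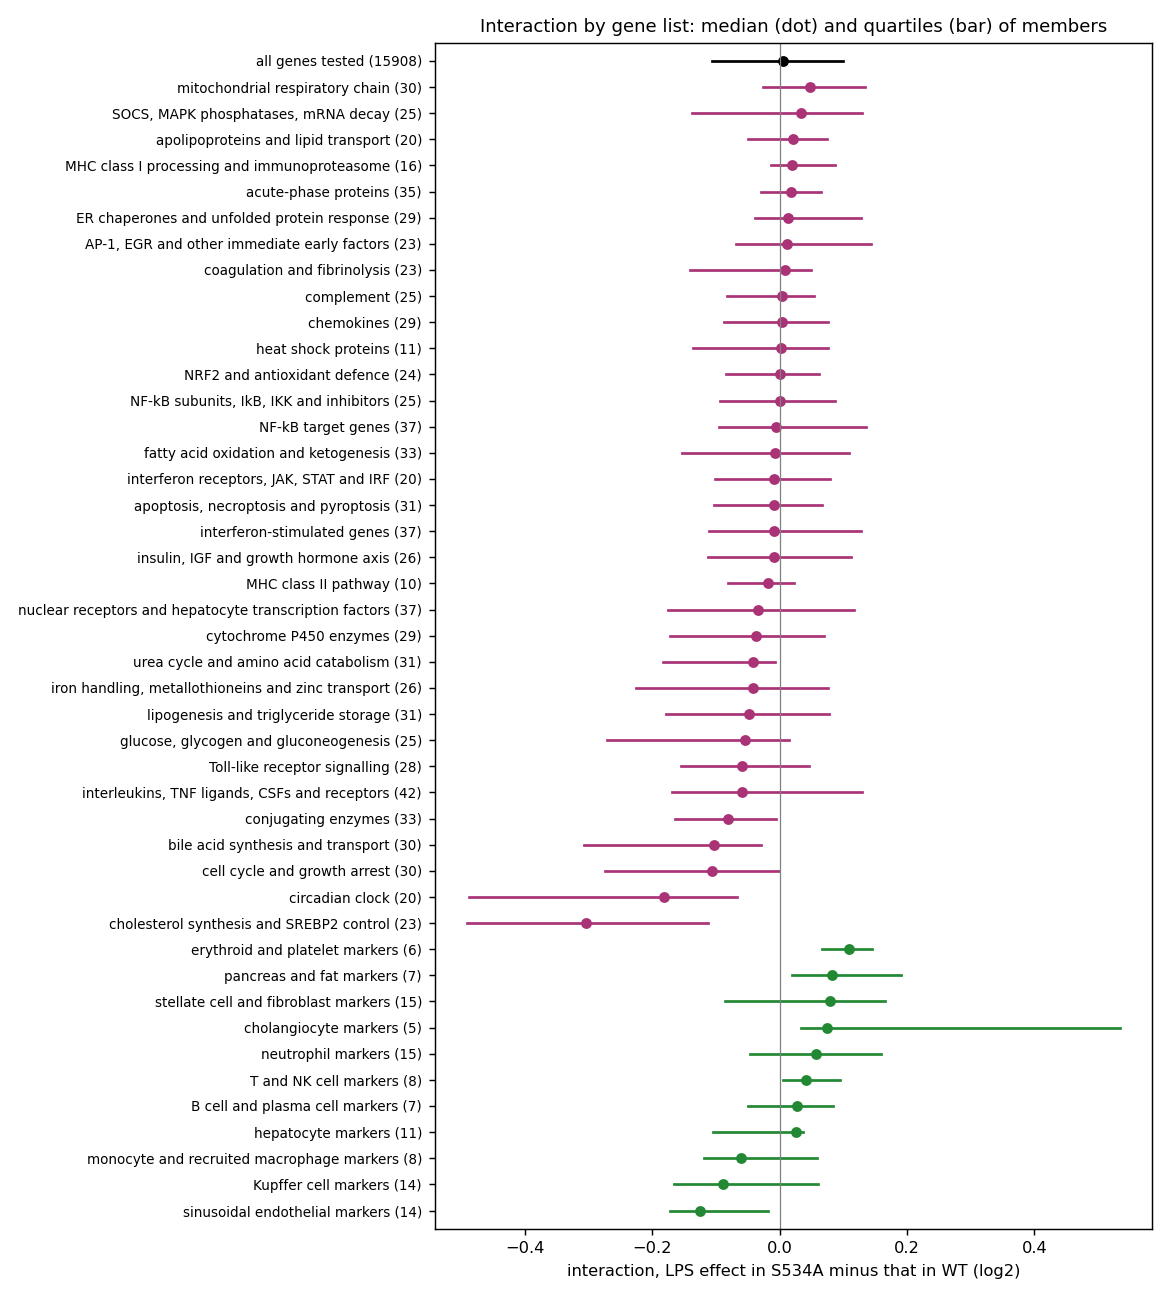
Median (dot) and quartiles (bar) of the interaction (log2) over the measured members of 44 gene lists, with the number of members in brackets; purple, pathways; green, cell type markers; black, all 15908 genes. The cholesterol synthesis list has the lowest median, −0.30, and 39 of 44 medians lie within 0.1 of 0.

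Of the 44 lists, 33 of pathways and 11 of cell type markers with 937 measured genes, none had a member called in the interaction. For 39 the median lay within 0.1 of 0. The 4 medians below −0.1 were those of cholesterol synthesis and SREBP2 control (−0.30), the circadian clock (−0.18), sinusoidal endothelial markers (−0.13) and the cell cycle (−0.11). Sinusoidal endothelial markers were at −0.04 without LPS-treated WT array 2, and the cell cycle at −0.05 without the 3 arrays of shifted clock. The single list above 0.1 was that of 6 erythroid and platelet markers (0.11). No test was made of these medians.

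Cholesterol synthesis genes were lowered by LPS in both genotypes, with larger falls in S534A in most of them. The pathway turns acetyl-CoA into sterols and is controlled by the transcription factor SREBP2 with its escort Scap and the Insig retention proteins. Of 23 measured genes 20 fell in WT and 22 in S534A, by a median of 0.61 and 0.88. In the interaction 0 of 23 were called, 21 lay below 0 and 2 above it, and 6 had an unadjusted p under 0.05, all negative. Of all genes 51.4% lay above 0, and of the genes that fell at least 2-fold with LPS 34.4% did. Genes under shared control do not count as separate observations. After LPS the median difference of S534A from WT was −0.26, and in untreated livers it was 0.03. Mean levels over the list ran from 10.92 to 11.15 in untreated WT, 10.97 to 11.14 in untreated S534A, 10.19 to 10.59 in treated WT and 9.86 to 10.39 in treated S534A, and the treated groups overlapped. Over the alternatives the median interaction ran from −0.36 to −0.20, with 19 to 22 genes below 0, being −0.24 without the 3 arrays of shifted clock and −0.20 without LPS-treated WT array 2.

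Nsdhl, which removes a methyl group from the sterol ring, had the lowest p of the cholesterol genes. Its level was 11.67, 11.58, 11.54 and 11.82 in untreated WT, 11.78, 11.81, 11.79 and 11.76 in untreated S534A, 11.21, 11.52, 11.24 and 11.44 in treated WT, and 10.68, 11.04, 10.92 and 11.20 in treated S534A. Each treated S534A array was below each treated WT array, by a narrow margin at the edge. Nsdhl fell by 0.30 ± 0.10 and 0.83 ± 0.10, an interaction of −0.53 ± 0.14 (adjusted p = 0.925). Cyp51, the lanosterol demethylase, fell by 0.35 and 0.87 (−0.52 ± 0.19), and the methylsterol oxidase Msmo1 fell by 0.83 and 1.38 (−0.55 ± 0.21). The remaining genes with an unadjusted p under 0.05, named after their values were seen, were Sqle, Fdft1 and Hsd17b7. Squalene epoxidase, Sqle, stood at −0.07 in WT, where it did not pass, and fell by 0.68 in S534A (−0.61 ± 0.24). Fdft1, squalene synthase, had −0.45 ± 0.20, and Hsd17b7, a sterol ketoreductase, had −0.56 ± 0.26. The 2 genes above 0, also named afterwards, were Mvd (0.29 ± 0.33) and Scap (0.14 ± 0.10), and Mvd was at 0.00 without the 3 arrays of shifted clock.

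**Figure D4:**
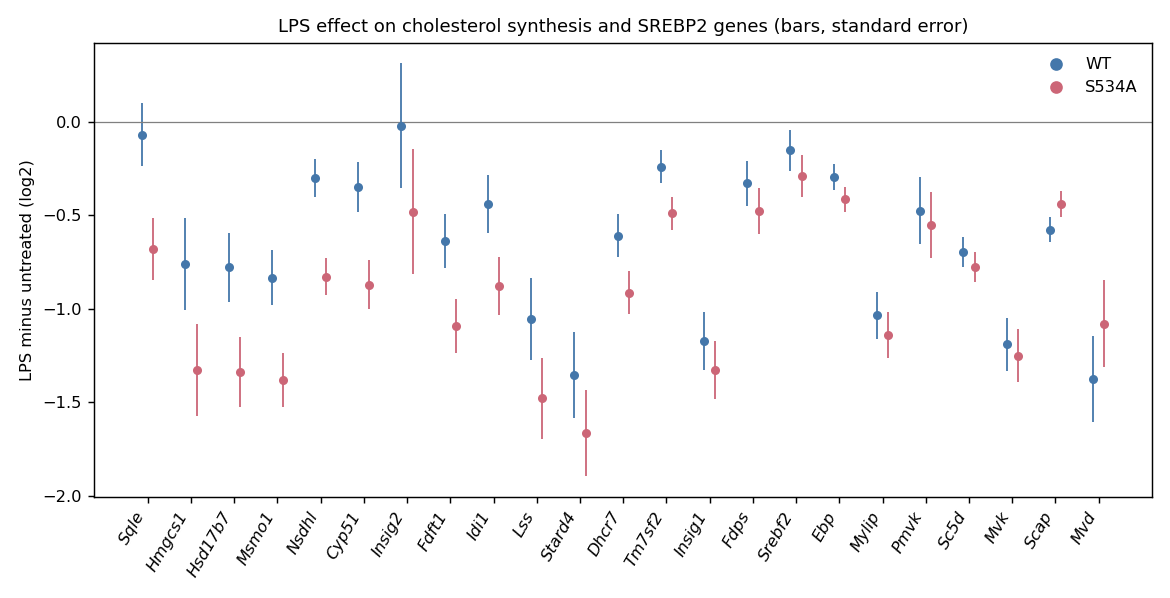
LPS effect (log2, with standard error from the limma fit, n = 4 per group) on 23 cholesterol synthesis and SREBP2 genes in WT (blue) and S534A (red), ordered by the interaction. The S534A effect lies below the WT effect for 21 of the 23 genes, and error bars overlap for many of them.

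Bile acid genes had smaller values, mostly below 0. Of 30 measured, 7 lay above 0, the median interaction was −0.10, and 4 had an unadjusted p under 0.05, all negative. Mean levels over the list were 10.56 to 10.69 in untreated WT and 10.78 to 10.80 in untreated S534A, without overlap, and 10.09 to 10.32 and 10.05 to 10.19 after LPS, with overlap. Such separation was not particular to this list. Apolipoproteins ran from 11.92 to 11.97 in untreated WT and 11.86 to 11.90 in untreated S534A. After LPS, iron handling (9.95 to 10.14 in WT, 9.89 to 9.93 in S534A) and the insulin axis (9.50 to 9.52, 9.55 to 9.64) also separated. No test was made of these levels. Cyp7a1 encodes cholesterol 7α-hydroxylase, which opens the main route to bile acids, and LPS changed it by −5.01 ± 0.40 in WT and −5.99 ± 0.40 in S534A. Its untreated levels were widely spread, 10.71, 12.26, 11.50 and 12.00 in WT and 12.63, 12.75, 11.13 and 12.43 in S534A, and in both genotypes the lowest arrays were those of shifted clock. The interaction was −0.98 ± 0.57 (adjusted p = 0.951), and −0.63 without LPS-treated WT array 2. Cyp8b1, the sterol 12α-hydroxylase, fell by 1.30 and 1.85 (−0.55 ± 0.22), and Akr1d1, which reduces bile acid intermediates, fell by 0.54 and 0.84 (−0.31 ± 0.11, and −0.18 without the 3 arrays of shifted clock).

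Enzymes of drug metabolism gave few differences. Of 29 cytochrome P450 genes 12 lay above 0 (median −0.04), and of 33 conjugating enzymes 8 did (median −0.08). Cyp2b9, a P450 whose level differs between the sexes in mouse liver, was at 5.94, 6.22, 6.84 and 6.51 in untreated WT, 7.61, 7.72, 6.84 and 8.21 in treated WT, 5.96, 6.65, 8.34 and 7.42 in untreated S534A, and 7.36, 6.10, 6.30 and 6.82 in treated S534A. The groups overlapped in each condition. Its interaction of −1.67 ± 0.59 (adjusted p = 0.951) is wide, and the related Cyp2b10, the phenobarbital-inducible member of the family, whose probes may cross-hybridise, gave −0.89 ± 0.40, or −0.33 without the 3 arrays of shifted clock. The sulfotransferase Sult1d1 had −0.54 ± 0.24, or −0.28 without those arrays. Among 37 nuclear receptors and hepatocyte transcription factors the median was −0.03, with 12 above 0 and 25 below, and the 3 genes with an unadjusted p under 0.05 were positive: the retinoid receptors Rara (0.44 ± 0.20), Rarg (0.32 ± 0.11) and Rxrb (0.30 ± 0.14). Rara fell by 1.55 in WT and 1.12 in S534A and Rarg by 0.70 and 0.38, while Rxrb fell in WT (−0.51) and stood at −0.20 in S534A. The interaction of Rara was 0.27 without untreated WT array 2 and 0.71 without the 3 arrays of shifted clock.

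In energy metabolism, single genes stood out rather than pathways. The 26 genes of the insulin, IGF and growth hormone axis had a median of −0.01, with Igfbp1 at one end and Igfbp5 at the other. Igfbp5, another IGF-binding protein, fell by 1.17 in WT and 0.68 in S534A (0.49 ± 0.16). Foxo1, the insulin-restrained transcription factor that acts on Igfbp1 and gluconeogenic genes, rose by 0.32 in WT and was at 0.02 in S534A (−0.30 ± 0.14, and −0.09 without the 3 arrays of shifted clock). G6pc, the last enzyme of glucose release, had LPS effects of −2.59 and −3.34 (−0.75 ± 0.37). In fatty acid oxidation (33 genes, median −0.01), Acaa1b, a peroxisomal thiolase, had 0.43 ± 0.20, or 0.74 without the same 3 arrays, and Angptl4, an inhibitor of lipoprotein lipase, rose by 1.01 in WT and stood at 0.45 in S534A (−0.56 ± 0.31), or −0.02 without them. Of 31 genes of amino acid catabolism, 7 lay above 0, including none of the 3 with an unadjusted p under 0.05, and Cth led them. The 30 respiratory chain genes had a median of 0.05 with 22 above 0, and 29 intervals lay within 1.5-fold. Apom, an HDL apolipoprotein, had 0.34 ± 0.10.

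Stress and growth-arrest genes included a few with larger values. Gadd45a, a growth-arrest and DNA-damage gene, was at 7.38, 7.87, 6.95 and 7.79 in untreated WT, 8.12, 7.58, 7.94 and 7.71 in treated WT, 7.32, 7.31, 7.36 and 7.37 in untreated S534A, and 8.53, 8.49, 8.19 and 8.25 in treated S534A. Treated S534A arrays lay above all others, though the gene was not called between treated genotypes. It rose by 1.03 ± 0.16 in S534A (adjusted p = 6.44e-05) and was at 0.34 ± 0.16 in WT (interaction 0.69 ± 0.23, adjusted p = 0.951). The interaction was 0.37 with array quality weights and 1.03 without the 3 arrays of shifted clock, and passed in neither. Trp53inp1, a p53-induced gene, rose by 2.43 and 1.68 (−0.75 ± 0.32), Mdm2, the p53 ubiquitin ligase, by 0.65 and 0.32 (−0.33 ± 0.14). Txnip, an inhibitor of thioredoxin, stood at −0.41 in WT and fell by 1.27 in S534A (−0.86 ± 0.28), from untreated levels of 11.06 to 11.35 in S534A against 10.25 to 10.94 in WT. The NRF2 inhibitor Keap1 had −0.27 ± 0.10, the caspase Casp12 −0.40 ± 0.17 (−0.24 without the 3 arrays of shifted clock), and the iron regulator Hfe 0.27 ± 0.11. Smad7, an inhibitor of TGF-beta signalling, had −0.76 ± 0.36, and −0.49 without LPS-treated WT array 2.

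Nr4a1, an immediate early nuclear receptor, depended on 1 array. It was at 6.62, 9.32, 7.01 and 6.94 in untreated WT and 8.02, 8.94, 8.95 and 8.68 in untreated S534A, and all treated arrays lay between 7.79 and 8.14. Untreated WT array 2 alone reached the S534A range. The interaction was −1.17 ± 0.58 (adjusted p = 0.951) with all arrays, and without untreated WT array 2 it was −1.79 and passed (adjusted p = 0.0315). Without the 3 arrays of shifted clock it was −0.42.

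Cell type markers moved with LPS to like extents in both genotypes; in whole liver, fewer cells of a type and less RNA per cell cannot be told apart. The 15 neutrophil markers had a mean level of 5.93 to 6.11 in untreated arrays and 7.55 to 8.03 in treated arrays of both genotypes, with a median interaction of 0.06, and Csf3r, the G-CSF receptor, rose by 1.98 and 1.66. The 14 Kupffer cell markers had a mean level of 9.06 to 9.52 in untreated WT and 8.77 to 9.24 in untreated S534A, 8.12 to 8.50 in treated WT and 7.92 to 8.22 in treated S534A, a median interaction of −0.09. Among them Vsig4, a complement receptor, fell by 2.19 and 2.52, and Id3, a transcription regulator, rose by 0.82 and 1.28. The 8 monocyte markers ran from 8.23 to 8.39 in untreated WT and 8.11 to 8.28 in untreated S534A. After LPS they ran from 9.05 to 9.29 in WT and 8.88 to 9.08 in S534A, with a median interaction of −0.06. Sinusoidal endothelial markers fell by a median of 1.42 in WT and 1.54 in S534A, with 11 of 14 interactions below 0 and the secreted protein gene Oit3 at −0.31 ± 0.14. Lrat, the retinol-storing enzyme of stellate cells, fell by 1.55 and 2.13 (−0.58 ± 0.25, and −0.35 without the 3 arrays of shifted clock), within a list whose median was 0.08. The hepatocyte gene Cps1 stood at −0.10 ± 0.07. The part of cell composition in the differences above was not tested.

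The circadian clock list had 16 of 20 interactions below 0 and a median of −0.18, which was 0.03 without the 3 arrays of shifted clock. Its genes were the least well measured, with 3 of 20 intervals within 1.5-fold. Dbp, a clock output factor, was at 8.45, 11.45, 7.85 and 11.80 in untreated WT and 11.37, 11.50, 7.33 and 10.98 in untreated S534A, and the 3 low values are those of the shifted arrays. Arntl (BMAL1), the core activator, was at 9.27, 6.40, 9.17 and 6.35 in untreated WT, then 6.43, 6.43, 9.71 and 8.33 in untreated S534A. Their interactions were −0.47 ± 1.30 and 0.06 ± 1.02, and Dbp was at 0.28 and Arntl at −0.69 without those arrays, or at −0.21 and 0.00 without LPS-treated WT array 2.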

How the data were processed

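Whole-liver RNA was measured on whole-transcript arrays. The authors deposited log2 expression values made with RMA, per the submitters' processing notes (version not given in the sources used here). They ran from 3.49 to 14.54, with array medians from 6.25 to 6.42. Precision is limited by having 4 arrays per group. Of 35556 probe sets 21789 had 1 gene symbol in the platform annotation, 1621 several and 12146 none, and 21698 matched RefSeq genes of GRCm38.p6. Probe sets above the 30th percentile of their array in at least 4 arrays were kept (26037), and the probe set of highest mean represented a gene, which left 15908 genes.

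All genes were fitted with limma 3.58.1 in R 4.3.3 with 4 group means (12 residual degrees of freedom, prior 4.28), two-sided, with Benjamini-Hochberg adjustment over all genes. The fit was tested on simulated data. Figures used Python 3.11.15 and matplotlib 3.10.9. The comparison, the lists and the rule for named genes were chosen with earlier results of these data known. Named genes were a selection of Rela, the 15 genes of lowest interaction p in each direction, the 3 members of lowest p of each list, the 5 strongest rises and 5 strongest falls with LPS, and the clock genes Arntl, Dbp, Per2 and Nr1d1. Small RNAs were named after their values were seen.

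The results were recomputed with other filters on dim probe sets (none, or the array median), with probe sets averaged or tested singly, with 2 other scalings (centred medians, repeated quantile normalization), and with array quality weights, trended and robust eBayes, unmoderated least squares, a replicate block or the clock score in the model. They were also recomputed at an adjusted p under 0.10, without the 3 arrays of shifted clock, and with single arrays left out.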

Additional observations from a re-analysis of the deposited data

Results flagged for a closer look

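Among the 80 genes named, 320 groups of 4 arrays were examined for 1 array far from the other 3, and 18 (5.62%) held one, where chance gives about 1 in 20. LPS-treated WT array 2 was that array in 5 of them: it was highest for Nr4a1 (8.14 against 7.82 to 7.86), Smad7 (8.67 against 7.54 to 7.69) and Id3 (10.46 against 9.86 to 9.96), and lowest for Trp53inp1 (12.46 against 12.71 to 12.74) and Adamts13 (6.68 against 6.84 to 6.85). Untreated WT array 2 was highest for Nr4a1 (9.32 against 6.62 to 7.01) and lowest for Rarg (7.15 against 7.22 to 7.24) and Oit3 (9.65 against 9.77 in the rest). Untreated WT array 4 was highest for Tgfb1 (8.46 against 8.22 to 8.26) and Cd55 (7.83 against 7.46 to 7.52), and LPS-treated WT array 4 was lowest for Copg2 (9.07 against 9.28 to 9.32).

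In S534A livers, untreated array 1 was highest for Rel (8.74 against 8.67 to 8.68) and lowest for Cyp2b10 (8.32 against 9.05 to 9.12). Untreated array 3 was lowest for Dbp (7.33 against 10.98 to 11.50) and highest for Slc17a4 (10.23 against 9.80 to 9.84). Untreated array 4 was highest for Tnfrsf1a (10.02 against 9.87 to 9.89) and lowest for Akap1 (10.14 against 10.20 in the rest). LPS-treated array 3 was highest for Acaa1b (10.69 against 10.55 to 10.56).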

How the results depend on the processing

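The interaction gave 0 calls in most of the alternatives. It gave 3 with array quality weights (Igfbp1, Polr2i and Snora73a), where 2180 genes (13.7%) had an unadjusted limma p under 0.05, against 766 (4.82%) in the fit reported. It gave 0 to 2 when each array was left out in turn. These were Nr4a1 without untreated WT array 2, Snora73a and Snora73b (1.05, adjusted p = 0.0246 and 0.0269) without untreated WT array 4, and Polr2i without LPS-treated WT array 2. Calls between untreated genotypes, 2 in the fit reported, were 4 with median centring, 370 with array quality weights, 4 with trended and robust eBayes, 1 each with ordinary least squares and without the 3 arrays of shifted clock (in both, neither Igfbp1 nor Mrps18a), and 0 to 7 with each array left out. The cause of these shifts was not tested. With the replicate block the interaction gave 0 calls and the untreated comparison 0 (Igfbp1 adjusted p = 0.0882, Mrps18a 0.116). The replicate numbers showed no general pairing of the samples. Over 24 same-numbered pairs the correlation of deviations ran from −0.49 to 0.59, with a median of −0.05 against 0.03 for pairs of other numbers. A shared origin of single pairs was not tested. Calls in WT lay between 6514 and 8331 and in S534A between 6611 and 9267, and S534A against WT after LPS gave 0 in every alternative run. The median interaction ran from −0.102 to −0.013 for genes that rose at least 2-fold and from −0.113 to −0.013 for genes that fell.

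Of the 80 genes named, 76 kept the sign of their interaction in all alternatives. Arntl turned to −0.22 with the clock score as covariate, to −0.69 without the 3 arrays of shifted clock, and to between −0.43 and −0.21 without untreated WT array 1 or 3, LPS-treated S534A array 2 or untreated S534A array 1 or 2 (highest 0.73, without untreated S534A array 3). Dbp turned to 0.28 without the 3 arrays and to 0.01 and 0.21 without untreated WT array 1 or 3 (−1.46 without untreated S534A array 3, and −1.64 with array quality weights). Ifit2 turned to 0.06 without the 3 arrays and 0.01 without untreated WT array 1 (lowest −0.19, without untreated WT array 4), and Mvd to 0.00 without the 3 arrays. The 8687 probe sets with several symbols or none gave 0 calls (553 at an unadjusted p under 0.05).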

Other observations

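Small nucleolar RNAs, which guide the modification of ribosomal and spliceosomal RNA, were examined after their values were seen. Of 46 measured, 38 had an interaction above 0, with a median of 0.43 against 0.005 for all genes, and a range from −0.40 to 2.39. An unadjusted limma p under 0.05 was reached by 16 with a positive interaction and 0 with a negative one, against 319 and 447 of all 15908 genes. Of the 46, 0 were called (0% of all genes), and only 9 had intervals within 1.5-fold, against 82% of all genes. Their median difference between genotypes was 0.20 after LPS and −0.12 in untreated livers. Snora73a was at 9.23, 9.58, 9.51 and 8.79 in untreated WT, 9.25, 9.37, 9.08 and 9.45 in treated WT, 8.78, 8.74, 8.65 and 8.61 in untreated S534A, and 9.58, 9.49, 9.53 and 9.76 in treated S534A. It rose by 0.90 in S534A and stood at 0.01 in WT (interaction 0.89 ± 0.19, adjusted p = 0.875), and its copy Snora73b, which may share probes, gave 0.88 ± 0.21. Snord118, a box C/D RNA of ribosome assembly, had the largest interaction of all genes (2.39 ± 0.63): its treated S534A levels were 10.64, 10.11, 8.88 and 10.48, against 7.91, 9.17, 7.93 and 8.75 in treated WT. Snord35b gave 1.00 ± 0.26. The median deviation of small nucleolar RNAs in single arrays ran from −0.41 in untreated S534A array 3 to 0.46 in LPS-treated WT array 2.

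The interaction also varied with the genomic span of genes. In 5 equal groups of 15858 genes from shortest to longest its median was 0.063, 0.038, 0.002, −0.045 and −0.052. In untreated livers the difference of S534A from WT ran from −0.033 to 0.038 over the same 5 groups, and after LPS it was 0.022, −0.002, −0.012, −0.013 and −0.008. Single arrays scattered in how their deviations from gene means correlated with log10 span. The correlation ran from −0.082 to 0.079 in untreated WT and −0.085 to 0.073 in treated WT. In S534A it ran from 0.061 to 0.114 untreated and −0.086 to 0.004 treated. Cholesterol genes had a median span of 16.3 kb against 20.1 kb for all genes.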
